A study of Mus musculus with 39 samples.

Results

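Intermediate progenitors are the dividing daughters of radial glia that produce most of the projection neurons of the cerebral cortex. The 10 genes described here mark the steps from radial glia to neuron: the proneural factors Neurog1 and Neurog2, the intermediate progenitor genes Eomes, Insm1, Btg2, Gadd45g and Sstr2, and the neuronal differentiation factors Neurod1, Neurod2 and Neurod6. They were taken by symbol from the 53379 genes in the count tables, and all 10 were found. RNA was sequenced from small pools of fluorescent cells sorted from the neocortex of single mouse embryos at embryonic day (E) 13 or E16. All embryos carried MADM (Mosaic Analysis with Double Markers) cassettes on chromosome 7 (MADM-7-GT and MADM-7-TG) together with Emx1-Cre, a Cre driven from the Emx1 locus, in a mixed C57BL/6J, CD1 background, with CD1 given as strain. Emx1 is active in progenitors of the dorsal telencephalon, so the labelled cells are that lineage and not the whole cortex.

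In MADM, Cre-mediated recombination between homologous chromosomes in a dividing cell labels a few daughter cells red with tdTomato or green with GFP, each with both copies of chromosome 7 from 1 parent (uniparental disomy), and yellow cells with a copy from each parent. Yellow cells can also arise from recombination outside of cell division. Red and green cells together are called singly coloured below. Of 39 libraries, 36 had at least 40% uniquely aligned reads and were kept: 5 red, 5 green and 5 yellow at E13, and 7 of each colour at E16. Their counts in genes ran from 472924 to 5205788 (median 3452734.5), and 3 counts, taken as the floor, corresponded to 0.576 to 6.34 CPM, a gene's count scaled to a common library size. The libraries E13 yellow 2, E16 yellow 5 and E16 green 7 held at least 50 counts of Xist and also at least 50 of Y-linked genes. The study itself set aside E13 yellow 2, E16 red 5, E16 red 6 and E16 yellow 7. The Gadd45g and Neurod6 differences between ages are given with and without these libraries, and other results only where stated.

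The labels name age, colour and replicate only. Red was taken as paternal disomy in replicates 1 to 3 and green from replicate 4 on, and 2 imprinted genes of chromosome 7 were read as a check. Cdkn1c, expressed from the maternal copy, was lower in the paternal than in the maternal disomy library in 5 of 5 embryos at E13 and 7 of 7 at E16. Kcnq1ot1, expressed from the paternal copy, was higher in 5 of 5 and 7 of 7.

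Neurogenins drive radial glia toward neurons. They switch on Eomes, the T-box factor (Tbr2) that defines intermediate progenitors, and later the NeuroD factors of young neurons. Neurogenins and NeuroD factors are basic helix-loop-helix proteins that bind the E-box motif CANNTG. Insm1 is a zinc-finger factor that promotes the formation of basal progenitors. Btg2 is an antiproliferative gene of neurogenic divisions, Gadd45g is a growth arrest gene transiently induced during neuronal commitment, and Sstr2 is a somatostatin receptor.

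Promoters of 9 of the 10 genes were matched in RefSeq (GRCm38.p6, from 250 bases before to 50 after the gene start). E-boxes (CANNTG, N any base, which reads the same on both strands) were present in 5 of the 9, beside 72.3% of 32851 mouse promoters of this length. The form CAGATG, sought on both strands, was in 1 of 9, that of Neurod2, beside 17.2% of all. Every match to CAGATG or CAGCTG is also a match to CANNTG. The promoters shown are those of Gadd45g and Neurod6, the members whose levels differed between ages, and of Eomes, which defines the cell type, with E-boxes in capitals. The Gadd45g promoter lies at chr13:51846425-51846724 on the plus strand, that of Neurod6 at chr6:55681214-55681513 on the minus strand and that of Eomes at chr9:118477939-118478238 on the plus strand.
Gadd45g: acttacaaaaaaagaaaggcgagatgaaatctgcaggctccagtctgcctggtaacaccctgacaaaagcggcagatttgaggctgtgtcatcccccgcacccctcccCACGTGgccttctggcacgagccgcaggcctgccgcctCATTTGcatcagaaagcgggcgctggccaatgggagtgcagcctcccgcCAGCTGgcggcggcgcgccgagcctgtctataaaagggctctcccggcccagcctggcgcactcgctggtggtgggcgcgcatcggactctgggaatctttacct
Neurod6: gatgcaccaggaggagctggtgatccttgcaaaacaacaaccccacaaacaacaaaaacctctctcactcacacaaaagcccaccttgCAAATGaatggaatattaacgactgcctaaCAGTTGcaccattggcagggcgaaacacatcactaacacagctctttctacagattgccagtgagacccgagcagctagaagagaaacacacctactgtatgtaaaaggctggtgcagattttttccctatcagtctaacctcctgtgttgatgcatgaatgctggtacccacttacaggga
Eomes: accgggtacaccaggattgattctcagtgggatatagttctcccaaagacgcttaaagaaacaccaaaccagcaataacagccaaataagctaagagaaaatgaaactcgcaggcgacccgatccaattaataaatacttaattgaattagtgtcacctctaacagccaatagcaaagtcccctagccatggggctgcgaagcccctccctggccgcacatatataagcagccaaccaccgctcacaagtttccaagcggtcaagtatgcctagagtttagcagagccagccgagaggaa

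The Gadd45g promoter held 3 E-boxes, 1 of them CAGCTG, and the Neurod6 promoter held 2. No CANNTG was found in this window of Eomes.

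All 10 are protein-coding genes. On GRCm38 (Gencode M21) Neurog1 lies at chr13:56250478-56252163, Neurog2 at chr3:127633135-127635631, Eomes at chr9:118478212-118486132, Insm1 at chr2:146221921-146225020 and Btg2 at chr1:134075170-134079120. Gadd45g lies at chr13:51846678-51848468, Sstr2 at chr11:113619342-113626028, Neurod1 at chr2:79452521-79456751, Neurod2 at chr11:98325415-98329648 and Neurod6 at chr6:55677822-55681263.

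Per kilobase of exon, the members spanned a wide range of levels. In singly coloured cells at E13, with red and green counts summed per embryo, Gadd45g stood first at 603 ± 166 CPM per kb (SD, n = 5), Neurod6 second at 157 ± 43.0 and Eomes next at 74.5 ± 15.6. At E16 Neurod6 stood first at 391 ± 60.2 CPM per kb (SD, n = 7), then Gadd45g at 118 ± 64.9 and Neurod2 at 75.2 ± 35.8. The order of Gadd45g and Neurod6 was exchanged between ages. From Eomes down at E13 and from Gadd45g down at E16, most neighbours in this order overlapped within 1 SD. Neurog1 was last in every group.

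**Figure D1:**
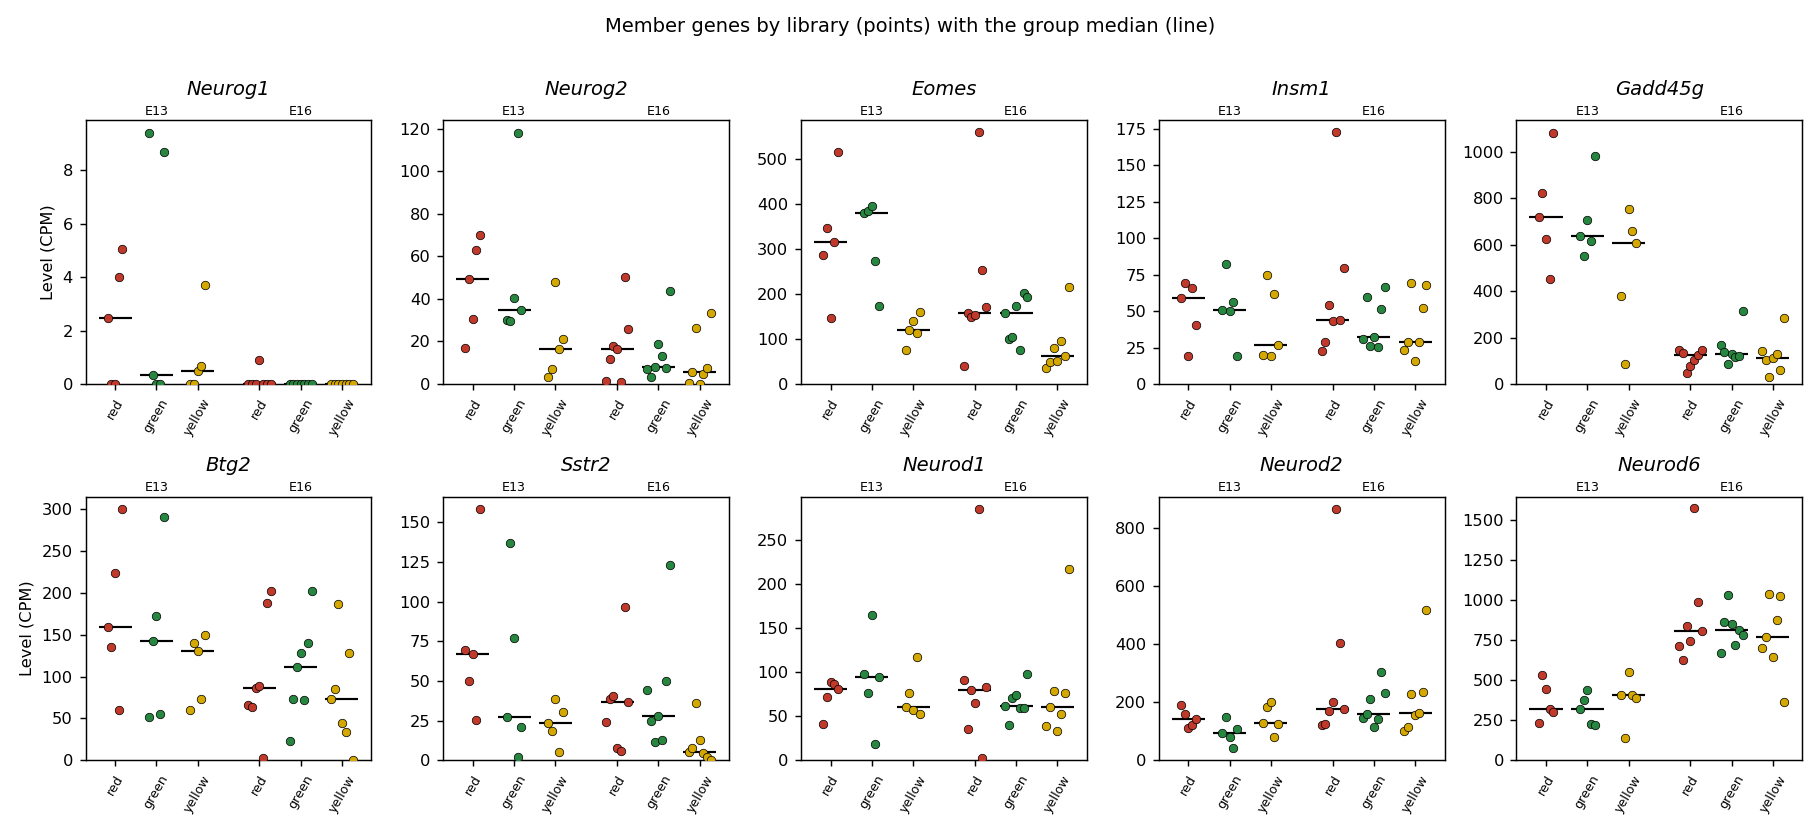
Level of each member in each library kept, in CPM after TMM scaling (linear axes from 0, a scale of its own per gene), by age and sorted colour, with the group median as a line. Gadd45g sits high at E13 and low at E16, Neurod6 the opposite, and Eomes is higher in red and green than in yellow at E13.

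The first comparison asked how the genes differ between mid and later neurogenesis. In singly coloured cells, Gadd45g was 4.69-fold lower and Neurod6 2.61-fold higher at E16 than at E13. These were 2 of the 9 members tested, beside 3.24% of all 12797 genes tested, of which 1.67% were higher and 1.56% lower (edgeR quasi-likelihood test on counts summed per embryo, adjusted p under 0.05, 5 embryos against 7). The other 7 members did not pass the test. The median log2 fold change of the 9 was -0.53, beside 0.055 over all genes.

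Neurog1 never reached the mean of 10 counts needed for the test. It had counts in 9 of 15 libraries at E13, 124 counts in all and 35 at most. At E16 it had 3 counts in 1 of 21 libraries, so at E16 it was at or below the floor in every library and no fold is given. Neurog2 measured 21.8, 37.3, 33.1, 85.2 and 53.3 CPM in the 5 embryos at E13 (red and green summed). At E16 its lowest, median and highest values were 3.75, 12.97 and 41.6 CPM. These ranges overlapped, with 5 of 7 E16 embryos below every E13 embryo. The overlap came from E16 embryos 6 (26.3 CPM) and 7 (41.6 CPM). The study set aside E16 red 6, and E16 green 7 held both Xist and Y-linked counts. The log2 fold change of Neurog2 was -1.32 (SE 0.624), with an edgeR adjusted p of 0.255. Over 23 alternative settings it ran from -1.85 to -0.98.

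Eomes measured 321, 369, 205, 298 and 355 CPM in singly coloured cells of the 5 embryos at E13. At E16 it ran from 90.7 through a median of 156 to 269 CPM. Thus 5 of 7 E16 embryos lay below every E13 embryo, but the ranges overlapped. The overlap came from E16 embryos 5 (269 CPM) and 6 (225 CPM), whose red libraries the study set aside. The log2 fold change was -0.78 (SE 0.282) and the edgeR adjusted p was 0.130. Over 23 alternative settings, among them the libraries the study used, the fold change ran from -1.14 to -0.55 (log2). The exons of Eomes overlap those of Gm33460 on the other strand, and without strand information reads from the overlap cannot be told apart. The count tables hold ambiguous reads apart from the genes, so such reads may be missing from the Eomes counts. Insm1 lay between 26.7 and 76.9 CPM at E13 and between 26.5 and 84.5 CPM at E16, nearly the same range. Its log2 fold change was 0.091 (SE 0.423), and its sign depended on the setting.

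Gadd45g measured 689, 658, 641, 516 and 1035 CPM at E13. At E16 its lowest, median and highest values were 65.7, 122 and 297 CPM. All 7 E16 embryos lay below all 5 E13 embryos, and the same held for red and for green libraries taken alone. Its log2 fold change was -2.23 (SE 0.350), with an edgeR adjusted p of 0.00312. Over 23 alternative settings the value ran from -2.74 to -2.07 and the adjusted p from 5.73e-08 to 0.0258.

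Btg2 ran from 58.1 to 296 CPM at E13 and from 44.1 to 202 CPM at E16. Sstr2 ran from 15.9 to 103 CPM and from 10.0 to 114 CPM. For both genes the spread between embryos of 1 age was as wide as between ages. Their log2 fold changes were -0.57 (SE 0.461) and -0.53 (SE 0.631), neither past the threshold.

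Of the 3 NeuroD genes, Neurod6 alone passed the test, and differences among them were not tested. Neurod1 lay between 59.3 and 107 CPM at E13 and between 34.7 and 149.8 CPM at E16, with a log2 fold change of 0.064 (SE 0.392) whose sign depended on the setting. Exons of Neurod1 overlap Cerkl and Gm26755. Neurod2 measured 154, 152, 105, 89.6 and 125 CPM at E13, and 131, 189.9 and 432 CPM as lowest, median and highest at E16. Here 5 of 7 E16 embryos lay above every E13 embryo. Its log2 fold change of 1.00 (SE 0.328) had an edgeR adjusted p of 0.103, and DESeq2 gave 0.0347. In the libraries the study used it was 0.59 (edgeR adjusted p = 0.257).

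Neurod6 measured 268, 437, 442, 283 and 262 CPM at E13. At E16 its lowest, median and highest values were 694, 784 and 1062 CPM. All 7 E16 embryos lay above all 5 E13 embryos, also in red and in green libraries taken alone. The log2 fold change was 1.39 (SE 0.214) with an edgeR adjusted p of 0.00278. Over the 23 settings it ran from 1.29 to 1.61. The call was lost in red libraries alone (adjusted p = 0.0850) and when the 3 libraries of low alignment were put back (adjusted p = 0.140).

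Without the 3 libraries that held both Xist and Y-linked counts, which removes E16 embryo 7 here, Gadd45g was at -2.59 (adjusted p = 0.000449) and Neurod6 at 1.38 (adjusted p = 0.00429). In the libraries the study used, they were at -2.12 (adjusted p = 0.0146) and 1.30 (adjusted p = 0.00852). Both calls held in both sets.

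**Figure D2:**
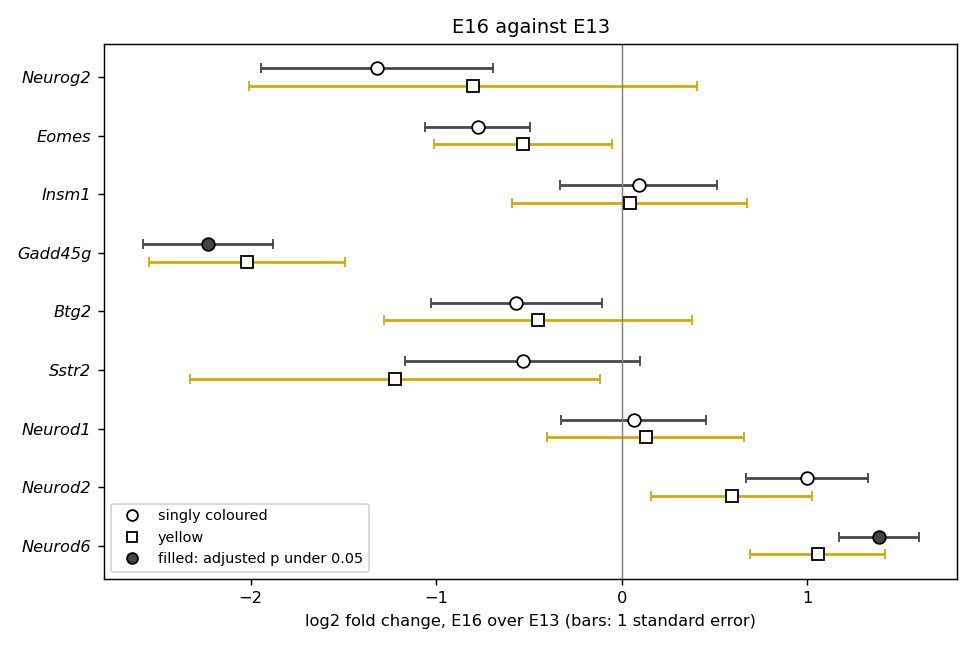
Log2 fold change of E16 over E13 for the 9 members tested, in singly coloured cells (circles) and yellow cells (squares), with bars of 1 standard error and filled symbols past the threshold. Gadd45g and Neurod6 in singly coloured cells are filled, and Neurog2, Eomes and Gadd45g lie left of 0 and Neurod2 and Neurod6 right of 0 for both kinds of cells.

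In yellow cells 0 of 9 members passed, beside 0.149% of 11378 genes tested (0.0967% higher and 0.0527% lower). At an unadjusted p under 0.05 there were 2 members, Gadd45g and Neurod6, beside 989 of the 11378 genes. DESeq2 called 194 genes and 1 member, Gadd45g. Gadd45g measured 377, 87.2, 753, 659.8 and 605 CPM in the 5 yellow libraries at E13, in the order of replicates 1, 2, 4, 5 and 6. At E16 it ran from 30.9 through 111 to 285 CPM. Of the E13 libraries, replicate 2 alone lay within the E16 range. The log2 fold change was -2.02 (SE 0.528) with an edgeR adjusted p of 0.181. Without E13 yellow 2 and E16 yellow 7, the yellow libraries the study set aside, it was -2.62 with an adjusted p of 0.00170. Without E13 yellow 2 and E16 yellow 5 it was -2.34 (adjusted p = 0.0987).

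Neurod6 measured 406, 137, 550.4, 408 and 390.0 CPM in yellow cells at E13, again lowest in replicate 2. At E16 it ran from 366 through 768 to 1039 CPM, with 6 of 7 libraries above every E13 library. Its log2 fold change was 1.05 (SE 0.366) and the adjusted p 0.326. Without E13 yellow 2 and E16 yellow 7 it was 0.97 with an adjusted p of 0.0262. The other members had log2 fold changes from -1.22 (Sstr2) to 0.59 (Neurod2) in yellow cells and did not pass. Eomes was at -0.53 (SE 0.481) and Neurog2 at -0.80 (SE 1.21). Whether the age effect differed between yellow and singly coloured cells was tested as an interaction: 0 of 9 members and 0% of 11472 genes passed in edgeR, with 475 genes at an unadjusted p under 0.05. DESeq2 called 219 genes, none of them a member.

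Other genes of the neurogenic cascade, a list of 22 genes of the same pathway, showed no common direction between ages in singly coloured cells. Of 22 tested, 1 was higher, Pou3f2 (a neuronal POU factor, log2 fold change 2.96, adjusted p = 0.0149), and 1 lower, Tcf3 (an E protein that partners proneural factors, -1.84, adjusted p = 0.0153). The list median was -0.20, beside 0.055 over all genes. In yellow cells 0 of 21 passed.

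Markers of neighbouring cell types moved with age as well. Of 12 radial glia markers, 6 were lower at E16 and 1 higher in singly coloured cells. By smallest p these were led by Ptprz1 (2.88, adjusted p = 0.000962), Vim (-1.75, adjusted p = 0.00120) and Nes (-4.61, adjusted p = 0.00210). The summed level of the list ran from 2123 to 4016 CPM over red and green libraries at E13 and from 1327 to 4179 CPM at E16. Of 8 genes of dividing cells, 7 were lower at E16, among them Ccnb1 (-2.70, adjusted p = 0.00189), Ccna2 (-2.85, adjusted p = 0.00210) and Birc5 (-2.38, adjusted p = 0.0107). Their sum over red and green libraries ran from 1123 to 2751 CPM at E13 and from 83.5 to 889 CPM at E16.

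Of 12 projection neuron markers, 6 were higher and 0 lower at E16, among them Mapt (2.51, adjusted p = 0.00210) and Map2 (1.15, adjusted p = 0.00487). Over red and green libraries their sum ran from 3343 to 5393 CPM at E13 and from 6767 to 14911 CPM at E16. No E16 red or green library lay below any E13 one. Yellow libraries overlapped, from 6176 to 7719 CPM at E13 and from 6536 to 9785 CPM at E16. In yellow cells 1 of 12 projection neuron markers was higher, and 0 of 11 radial glia and 0 of 8 dividing cell genes passed, beside 0.149% of all genes tested. In bulk samples more neurons and more RNA per neuron cannot be told apart, and the part of either in the Neurod6 and Gadd45g results was not tested. Among the remaining cell types, Ebf2 of the Cajal-Retzius list (1 of 4 tested) and Pdgfra of the oligodendrocyte precursor list (1 of 2) were lower at E16. None of 5 interneuron, 3 vascular and 3 blood genes passed, and no microglia gene reached the test. The summed blood genes ran from 0.220 to 18905 CPM over single E13 red and green libraries, and their part was not tested.

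The second comparison set singly coloured cells against yellow cells of the same embryo. Eomes and Neurog2 had the largest values at E13, 2.72-fold and 3.36-fold higher in singly coloured cells, but 0 of 9 members passed, beside 0.00848% of 11786 genes tested (1 gene, edgeR with the embryo as a block, or 9 genes without the block). At an unadjusted p under 0.05 there were 2 members, Eomes and Neurog2, beside 808 of the 11786 genes. DESeq2 called 558 genes and 1 member, Eomes. At E16 0 of 9 members and 0% of 10794 genes passed in edgeR, with 257 genes and 1 member, Eomes, at an unadjusted p under 0.05. DESeq2 called 87 genes at E16, none a member.

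At E13 Eomes measured 286, 347, 147, 315 and 515 CPM in red, 379, 383, 394, 273 and 174 CPM in green (both replicates 1, 2, 3, 4 and 6), and 75.5, 119, 139, 112 and 159 CPM in yellow libraries (replicates 1, 2, 4, 5 and 6). Red 3 lay inside the yellow range and the other 9 singly coloured libraries lay above it. Within the 4 embryos with all colours the log2 difference was 2.12, 1.60, 1.07 and 0.91, higher in 4 of 4. The fitted log2 fold change was 1.44 (SE 0.420), with an edgeR adjusted p of 0.486 and a DESeq2 adjusted p of 0.0117. Without the embryo as a block it was 1.39 with an edgeR adjusted p of 0.124.

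At E16 Eomes ran from 40.3 through 157 to 559 CPM in red, from 75.8 through 158 to 203 CPM in green and from 35.5 through 62.9 to 215 CPM in yellow libraries. The highest yellow value was replicate 7, one of the libraries the study set aside. Singly coloured cells were higher in 6 of 7 embryos, all but that of replicate 7. The fitted log2 fold change was 1.16 (SE 0.430, edgeR adjusted p = 1), and 1.10 in the libraries the study used.

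Neurog2 at E13 measured 3.42, 7.07, 48.0, 16.4 and 21.2 CPM in yellow libraries and between 16.9 and 118 CPM in singly coloured ones. It was higher in singly coloured cells in 4 of 4 embryos at E13, with a log2 fold change of 1.75 (SE 0.770, adjusted p = 0.714). At E16 it was higher in 5 of 7 embryos, and yellow values ran from 0 to 33.2 CPM. The log2 fold change was 1.02 (SE 1.06, adjusted p = 1), so the uncertainty at E16 was as large as the difference. Neurog1 had counts in 6 of 10 singly coloured and 3 of 5 yellow libraries at E13. On these few counts it was higher in singly coloured cells in 4 of 4 embryos.

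The other members had smaller values than Eomes and Neurog2 at E13, but at E16 Sstr2 had the highest value of the 9. Insm1 was at 0.73 (SE 0.665) at E13 and 0.33 (SE 0.528) at E16, and Gadd45g at 0.79 (SE 0.439) and 0.21 (SE 0.328). Within embryos at E13, Insm1 was above 0 in 4 of 4, with log2 differences from 0.0044 to 1.63. Gadd45g at E13 rested on embryo 2, with 0.29 without it. Sstr2 was at 0.52 (SE 1.02) at E13 and 1.86 (SE 0.988) at E16, where it was higher in 6 of 7 embryos. Its E16 log2 differences were largest in embryos 6 (4.67) and 7 (6.79), and ran from -0.73 to 2.56 in the others. The yellow library of embryo 7 was set aside by the study. Over 17 alternatives, among them the libraries the study used, the E16 value ran from 1.43 to 2.42. Btg2 was at 0.041 (SE 0.456) and 0.23 (SE 0.761), and Neurod1 at 0.18 (SE 0.548) and -0.078 (SE 0.567). Neurod2 was at -0.47 (SE 0.414) and 0.10 (SE 0.353), and Neurod6 at -0.29 (SE 0.395) and 0.15 (SE 0.208). The difference seen for Eomes did not itself pass in edgeR. A difference of that size was not detectable in Insm1, Btg2, Sstr2 or Neurod1 either, whose standard errors were larger at both ages.

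**Figure D3:**
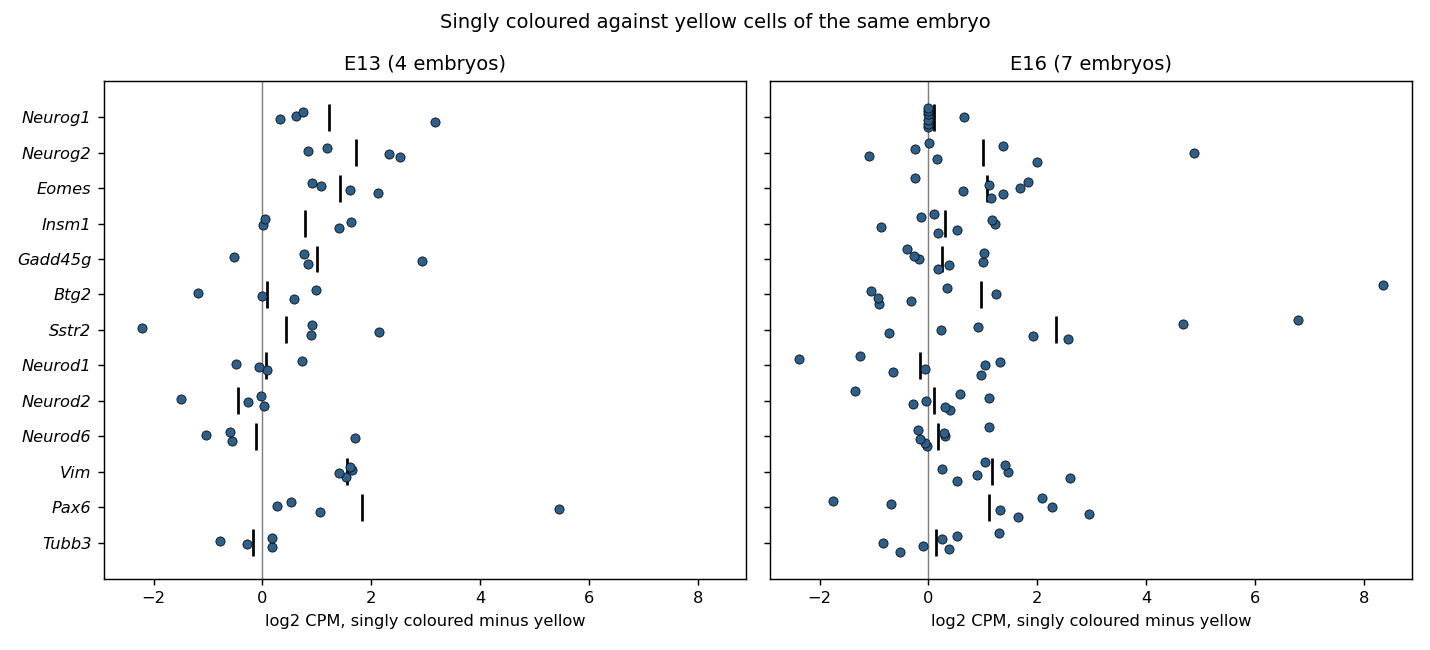
Log2 CPM of singly coloured (mean of red and green) minus yellow libraries of the same embryo, 1 point per embryo with the mean as a bar, for the members and for Vim, Pax6 and Tubb3. Above 0 in 4 of 4 embryos at E13 are Eomes, Neurog1, Neurog2, Insm1, Vim and Pax6. Neurod6 is above 0 in 1 of 4. The share of all genes above 0 in 4 of 4 embryos is not given.

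Cell type markers were set beside these values, and no gene of any marker list passed in this comparison at either age. The summed level of the radial glia list ran from 2123 to 4016 CPM in singly coloured and from 1353 to 1742 CPM in yellow libraries at E13, and was higher in 4 of 4 embryos by 0.85 ± 0.227 (log2, SD). At E16 it was higher in 7 of 7 embryos by 0.72 ± 0.393. Vim, an intermediate filament of radial glia, was higher in 4 of 4 and 7 of 7 embryos. Of the 12 radial glia genes, 1 (Hes5, named for this after its values were seen) was at 0 in every E16 yellow library, and none was at 0 throughout any other group. Of 11 radial glia genes tested at E13, 9 were above 0 (median 0.82), and of 9 at E16, 8 were (median 0.87). All 8 genes of dividing cells were above 0 at both ages, with medians of 1.29 and 1.13. Their sum was higher in singly coloured cells in 4 of 4 embryos at E13, by 1.30 ± 0.975 (log2, SD), and in 6 of 7 at E16, by 1.19 ± 1.60. The summed projection neuron markers were lower in singly coloured cells in 4 of 4 embryos at E13, by -0.61 ± 0.277, but at E16 in 4 of 7 (mean difference -0.038 ± 0.266). Cajal-Retzius genes had negative values, with 0 of 5 tested above 0 at E13 (median -2.95) and 0 of 3 at E16 (median -1.55). Their sum ran from 23.6 to 678 CPM in singly coloured and from 229 to 596 CPM in yellow libraries at E13, and from 0 to 199 CPM and 19.4 to 202 CPM at E16. The part of these markers in the Eomes and Neurog2 values was not tested. Of the other genes of the cascade, 0 of 22 passed at E13, with 18 of 22 above 0 and a median of 0.30 beside -0.10 over all genes. At E16 0 of 19 passed, with 14 above 0 and a median of 0.30 beside 0.0017.

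The third comparison asked whether the parental origin of chromosome 7 changed these genes, none of which lies on that chromosome. No member differed between paternal and maternal disomy past the threshold: 0 of 9 at E13 and 0 of 9 at E16 in edgeR and in DESeq2, and 0 at an unadjusted p under 0.05. Over all genes, 0% of 11786 passed at E13, with 264 at an unadjusted p under 0.05 and 202 called by DESeq2. At E16 0.0278% of 10794, or 3 genes, passed, with 249 at an unadjusted p under 0.05 and 61 called by DESeq2.

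Eomes at E13 had the smallest p of the members. Its paternal disomy libraries measured 286, 347, 147, 273 and 174 CPM in embryos 1, 2, 3, 4 and 6 and the maternal ones 379, 383, 394, 315 and 515 CPM. It was lower in the paternal library in 5 of 5 embryos, although embryo 2 and embryo 4 differed by only -0.14 and -0.20 on the log2 scale. The fitted log2 fold change was -0.74 (SE 0.353), with an edgeR adjusted p of 1. At E16 it was lower in 3 of 7 embryos, with a log2 fold change of -0.49 (SE 0.477) that was -0.16 in the libraries the study used. The difference between ages was 0.24 (SE 0.626) and did not pass. Tubb3, the neuron reference, also lay on 1 side at E13, higher in the paternal library in 5 of 5 embryos.

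Neurod2 at E16 was lower in paternal disomy in 6 of 7 embryos, at -0.67 on the log2 scale (SE 0.387; adjusted p = 1 by edgeR), and Neurod6 in 5 of 7 at -0.26 (SE 0.233). Neurod2 ran from 114 through 142 to 305 CPM in paternal and from 145 through 199 to 867 CPM in maternal libraries. The highest of these was E16 red 5, set aside by the study. Without that embryo the Neurod2 value was -0.32, that of Neurod6 -0.13 and that of Insm1 -0.22, and in the libraries the study used they were -0.27, -0.16 and -0.36. The remaining values ran from -1.07 (Sstr2, SE 0.959) to 0.37 (Btg2) at E13 and from -0.61 (Insm1, SE 0.602) to 0.55 (Sstr2, SE 0.993) at E16. For Gadd45g they were 0.16 (SE 0.414) and 0.092 (SE 0.390). For Neurog2 at E16 the fitted value was 0.018, too near 0 for its SE (1.91) to be reliable. Its log2 differences within the 7 embryos ran from -2.61 to 3.28, with an SD of 2.03. The direction of disomy changed with replicate number, so red cells of the early replicates and green cells of the later ones stand for the same origin. With colour as a term beside the disomy, 0 members passed at either age, and neither did they for green against red. For the difference between ages in the disomy effect, 0 of 9 members and 0% of 11472 genes passed in edgeR, with 291 genes at an unadjusted p under 0.05, and DESeq2 called 207 genes and 0 members.

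**Figure D4:**
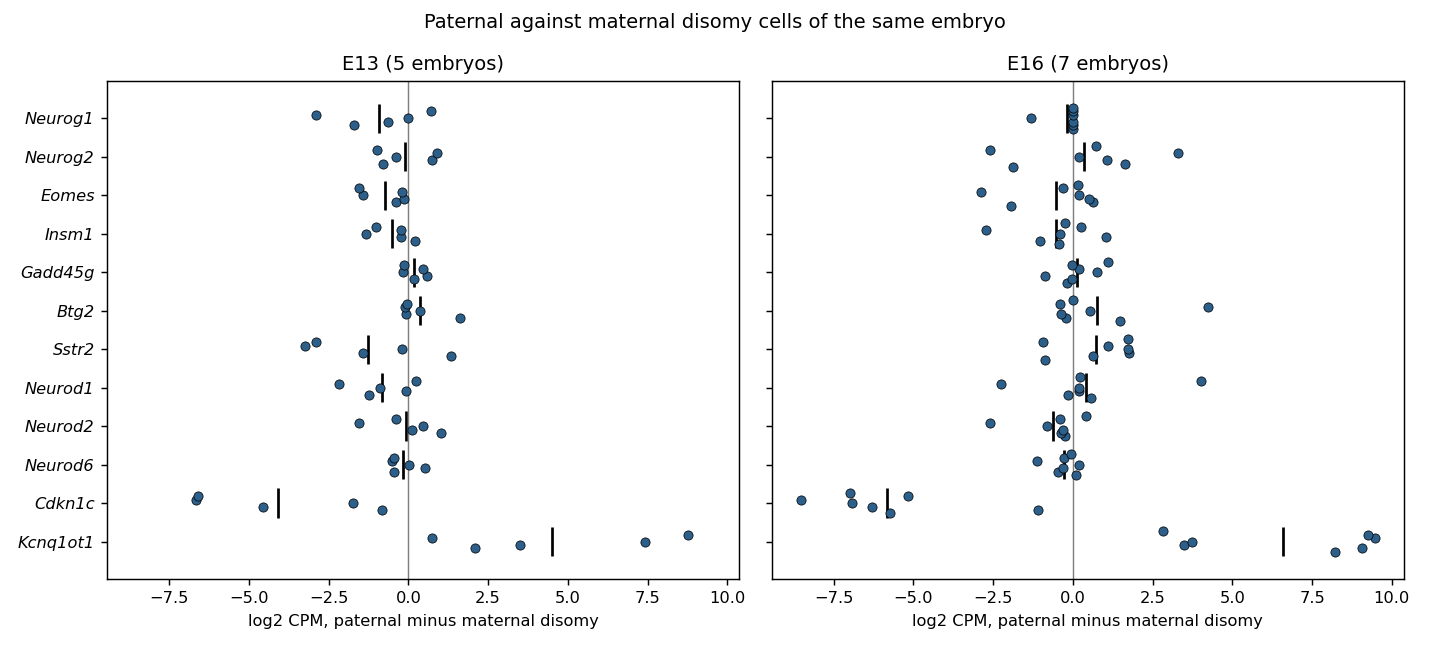
Log2 CPM of paternal minus maternal disomy libraries of the same embryo, 1 point per embryo with the mean as a bar, for the members and for Cdkn1c and Kcnq1ot1. The imprinted genes lie on 1 side of 0 in every embryo (Cdkn1c below, Kcnq1ot1 above). Of the members only Eomes at E13 does, in 5 of 5 embryos. Tubb3, which is not drawn, is above 0 in 5 of 5 at E13, and the share of all genes on 1 side is not given.

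Members also differed in which genes varied like them over the 36 libraries. Likeness was measured as the root mean square difference of standardised log2 CPM between the member and each of 11464 genes, where 0 is the same profile. The median gene was at 1.463 from Eomes, 1.428 from Neurog2 and 1.405 from Neurod6. Nearest to Eomes were Lhx2 (0.686), Hnrnpl (0.765), Notch1 (0.771), Nt5dc2 (0.787) and Hsp90ab1 (0.800). Lhx2 is a progenitor LIM homeobox factor and Notch1 a receptor of radial glia, and Notch1 is also in the radial glia list. Nearest to Neurog2 were Acvr2b (0.774), Rnd2 (0.780), Gadd45a (0.835), Ahctf1 (0.836) and Snrnp40 (0.851). Rnd2, a small GTPase of migrating neurons, and Gadd45a are in the list of other cascade genes. Nearest to Neurod6 were Ntm (0.578), Dbpht2 (0.581), Pantr1 (0.582), Lsamp (0.596) and Unc5d (0.610). Ntm and Lsamp are neuronal adhesion molecules and Unc5d a netrin receptor of upper-layer neurons. Among the members, Eomes and Neurog2 were each other's nearest (0.869), Neurod2 was nearest to Neurod6 (1.03), and Gadd45g was farthest from Neurod6 (1.83). These distances are a description, in which all libraries share their ages and depths.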

How the data were processed

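RNA-seq was made by the Smart-Seq2 protocol from FACS-sorted cells, without molecular identifiers. The authors aligned reads with STAR 2.5.0c to GRCm38 with Gencode M16, keeping reads with 1 alignment, after technical replicates were combined, and deposited raw read counts per gene in an unstranded and 2 stranded columns (median 54.6% and 53.0% of the unstranded). SAMtools 1.8 and bedtools 2.26.0 are named in the submitters' processing notes. Here the unstranded counts were used, and 53274 of 53379 gene identifiers were matched to Gencode M21 (GRCm38) for symbols, positions and exon lengths.

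The members, the other gene lists and the tests were chosen with earlier results of these data known. Libraries under 40% uniquely aligned reads (E13 yellow 3, E13 red 5, E13 green 5) were left out. Reads without a feature, 12.8% to 44.1% of uniquely aligned reads, stayed out of library sizes. Genes with a mean count of at least 10 over the libraries of a fit were tested with edgeR 4.0.16 (R 4.3.3, TMM scaling, quasi-likelihood test), with Benjamini-Hochberg adjustment over all genes and a threshold of 0.05. For E16 against E13, red and green counts were summed per embryo. Differences within an age had the replicate number as a block, with contrasts of red and green against yellow, or of paternal against maternal disomy. Each SE was derived from the edgeR log2 fold change and its test statistic, and is unreliable where the fold change is near 0. CPM per library were scaled by TMM over the 36 libraries, and log2 CPM had a prior count of 2. DESeq2 1.42.0, RLE scaling, other filters, other sets of libraries, other blocks and single colours were alternatives, and the removal of libraries with both Xist and Y-linked counts was added after the data were seen. The scripts were tested on simulated counts.

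Same-numbered libraries of an age were taken as the colours of 1 embryo, since per the study single individuals were replicates. The labels do not say that equal numbers mark 1 embryo. Their deviations from the group means had a mean correlation across genes of 0.044 at E13 (lowest 0.0055 of 13 pairs) and 0.029 at E16 (lowest -0.040 of 21), beside -0.0092 and -0.0035 for different numbers. Across ages a shared number marks different embryos. Disomy direction is not in the labels: the colour that stands for paternal disomy is exchanged after replicate 3. P-values of E16 against E13 rest on the spread between embryos. Those of the other comparisons rest on the spread among libraries left after the embryo block, where red and green libraries of 1 embryo count separately. PCR reads are not independent molecules, so the floor of 3 counts covers counting error only.

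The text names the 10 members in each comparison, at most 3 genes per list by smallest p among those past the threshold, the 5 genes most like Eomes, Neurog2 and Neurod6, Cdkn1c and Kcnq1ot1 for the disomy direction, and Vim, Pax6 and Tubb3 as references. Ebf2 and Pdgfra are given without a fold because they were near 0 at E16. One gene that this rule names is not reported here.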

Additional observations from a re-analysis of the deposited data

Results flagged for a closer look

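In groups of 4 to 10 libraries, the gap of the highest or lowest log2 CPM to its nearest neighbour was compared with Dixon's 95% critical value, which chance passes in about 1 of 20 groups. Of 58 groups of member values, 6 held such a library. Neurog2 was at 118 CPM in E13 green 4, where the other green libraries lay between 29.4 and 40.6 CPM. Neurod1 was at 41.5 CPM in E13 red 1, below the 71.8 to 89.1 CPM of the other red libraries. Neurod6 was at 137 CPM in E13 yellow 2, below the 390.0 to 550.4 CPM of the other yellow libraries, and this library also had the lowest Gadd45g of its group and both Xist and Y-linked counts. Btg2 was at 3.23 CPM in E16 red 5 (others 63.2 to 202 CPM) and at 0 CPM in E16 yellow 7 (others 34.2 to 186 CPM), both set aside by the study. Neurog1 was at 0.910 CPM in E16 red 4, which is 3 counts, and at 0 in the other 6 red libraries.

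Among the libraries left out for low alignment, Insm1 had 342 CPM, unscaled, in E13 red 5, above the highest yellow library of that age at 79.6 CPM.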

How the results depend on the processing

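Over the alternatives, the Gadd45g and Neurod6 calls in singly coloured cells held when any 1 embryo was left out (2 members each time, 224 to 450 of all genes). Disomy values were followed only for Eomes, Sstr2 and Neurod1 at E13 and for Eomes, Insm1, Neurod2 and Neurod6 at E16. They kept their direction in all alternatives other than green against red, where it was not read (45 values at E13, 64 at E16). The direction in the other members was not followed. The exceptions elsewhere follow, and the cause was not tested.

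E16 against E13, singly coloured (414 genes, 2 members): DESeq2 called 1264 genes and 3 members, with Neurod2 at 0.99. All 39 libraries gave 55 genes and 1 member, red alone 36 genes and 1 member, and green alone 155 genes. Insm1 turned to -1.03 with all 39 libraries, -0.078 in the libraries the study used, -0.029 without the libraries with Xist and Y-linked counts, -0.037 with replicates 1 to 3 against 4 and up as a covariate, -0.198 with the replicate block and -0.287 in green alone. Neurod1 turned to -0.030, -0.024, -0.00071, -0.409 and -0.441 in the same settings without the first. With single embryos left out, Insm1 ran from -0.064 to 0.31 and Neurod1 from -0.16 to 0.24.

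E16 against E13, yellow (17 genes, 0 members): DESeq2 called 194 genes and 1 member, the libraries the study used 146 and 2, no filter 55 genes, the replicate block 6 genes, and 9 genes without the libraries with both counts. Without 1 embryo it was 1 to 31 genes. Insm1 turned to -0.0066 (all 39 libraries) and -0.279 (replicate block). Neurod1 turned to -0.418, -0.313 and -0.441 with all 39 libraries, the libraries the study used and the replicate block. With single embryos left out, Insm1 ran from -0.14 to 0.34 and Neurod1 from -0.32 to 0.37.

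Singly coloured against yellow, E13 (1 gene, 0 members): DESeq2 called 558 genes and 1 member, no filter 20, all 39 libraries 0, RLE 2, no replicate block 9, the block of the study 18, red 0, green 3, and the libraries the study used and those without both counts 9 each. Without 1 embryo it was 0 to 7. With all 39 libraries Btg2 was at -0.908 and Neurod1 at -1.05, with green alone Btg2 at -0.178, and without E13 yellow 2 Sstr2 at -0.143. With single embryos left out, Btg2 ran from -0.23 to 0.52, Sstr2 from -0.26 to 1.53 and Neurod6 from -0.76 to 0.0029. At E16 (0 genes) DESeq2 called 87 and no filter 2. In the libraries the study used Btg2 was at -0.066, Neurod1 at 0.170 and Neurod6 at -0.102. Red alone gave Gadd45g -0.016, green alone Neurod2 -0.097, and without the libraries with both counts Neurod2 was at -0.038. With single embryos left out, Btg2 ran from -0.13 to 0.48, Neurod1 from -0.34 to 0.17 and Neurod2 from -0.10 to 0.38.

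Paternal against maternal disomy: at E13 (0 genes) DESeq2 called 202 and no filter 3, and 0 to 1 without 1 embryo. At E16 (3 genes) DESeq2 called 61, no filter 11, green against red 0, and 1 to 3 without 1 embryo. For the differences between ages (0 genes), DESeq2 called 219 and 207 and no filter 26 and 4, and 0 to 1 without 1 embryo. The replicate block changed no call of a member. Neurog1, under a mean of 10 counts, could not be tested.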

Other observations

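The libraries left out for low alignment carried the members unevenly. E13 yellow 3 held 1209 counts of Neurod6 (1030.1 CPM, unscaled), above the highest kept yellow library of that age at 529.7 CPM, and 348 CPM of Neurod1, above 118 CPM. Its Gadd45g was at 156 CPM and its Eomes at 170.4 CPM. E13 red 5 had 591 counts of Gadd45g and 651 of Insm1 but 0 of Eomes, Btg2, Sstr2, Neurod1 and Neurod2. E13 green 5 had 2 counts of Insm1, 1 of Gadd45g and 0 of the other 8 members.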
